A study of Mus musculus with 9 samples.

Results

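A set of 10 genes with known roles outside macrophages, Scn11a, Cnnm1, Psma8, Morc4, Rbfox1, Epb4.1l1, Msrb3, Iqcg, Gypc and Ptgfrn, were followed across RAW264 control cells and 2 clones whose Zscan10 gene was edited with CRISPR/Cas9. They are 10 of 23420 genes listed, and were chosen by name because earlier results of these data showed them lost or gained in a clone. Their own levels in the clones and in control are therefore given as a description, with no test. RAW264 is a mouse macrophage-like line. In control, 7 of the 10 genes had a mean of at least 10 normalised reads and 3 had fewer.

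The RNA-seq libraries numbered 9, 3 for control, 3 for the clone KO1 and 3 for the clone KO2, and no culture received RANKL, the cytokine that drives osteoclast formation. Control cells carry no mutation per the labels. The clones were made by electroporating a vector for Cas9, guide RNA and the ZsGreen1 reporter, followed by single-cell sorting, so each mutant line descends from 1 cell and clone and mutation cannot be told apart. KO1 is labelled as mutated in exon 2 and KO2 in exon 5 of Zscan10, while the names of the raw reads carry the opposite clone numbers. Zscan10 had 0 reads in all 9 libraries, controls included, so its reads do not check the labels.

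Depth was 1821703 to 2458539 reads per library. Levels are normalised reads, that is reads divided by 1 size factor per library, as mean ± SD of 3 libraries. Because single molecules were not tagged, intervals and limits on reads describe the error of counting alone. All 13 macrophage markers had reads in each group, and their summed level was 30630 to 31724 in control, 43721 to 44786 in KO1 and 38824 to 40321 in KO2. Most of that sum is Lyz2, the lysozyme gene (means of 17632, 30181 and 27720). Calls are those of limma at an adjusted p under 0.05, described below. Of the 13 markers, 6 were called higher and 2 lower in KO1 (61.5%, against 20.8% of all 9564 tested genes). In KO2, 1 was called higher and 8 lower (69.2%, against 22.5%). The median log2 changes of the markers were 0.17 in KO1 and -0.23 in KO2. The labels do not state whether the 3 libraries per group are separate cultures, and a p-value here measures just the spread among them, which may be technical. In such bulk RNA, fewer cells that express a gene and less of its RNA per cell cannot be told apart.

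The genes belong to unrelated systems. Scn11a encodes the sodium channel Nav1.9 of pain-sensing neurons, and Cnnm1 belongs to a family of membrane proteins tied to magnesium transport. Psma8 encodes a proteasome subunit of male germ cells, Rbfox1 a splicing regulator of brain and muscle, and Morc4 a nuclear ATPase of the MORC family. Epb4.1l1 and Gypc take part in the link between membrane and spectrin skeleton, best known from red blood cells, and Ptgfrn binds tetraspanins at the cell surface. Msrb3 reduces oxidised methionine, and Iqcg serves the moving tails of sperm.

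The genes lie on 8 chromosomes, 4 on the plus and 6 on the minus strand in mm10. The annotation in the table gives them 3 to 27 exons and 1693 to 6517 exonic bases, and their spans run from 31.7 kb for Gypc to 1528 kb for Rbfox1. RefSeq promoter sequence (build GRCm38.p6, the patch release of mm10) was used for 8 of the 10 genes, as 11 promoters. The 250 bases upstream of 4 RefSeq starts are printed because they differ widely in their content of CG dinucleotides, in genes that were lost in both clones or, for Morc4, gained. The RefSeq start of Cnnm1 lies 23 bases before the gene start given in the deposited table, and the other 3 starts match it. The bases just after the start were found in a GENCODE transcript of the gene for Ptgfrn and Morc4 and not for Scn11a and Cnnm1. Capitals mark the CG dinucleotides, and each sequence reads along the gene's own strand. They lie at chr9:119825457-119825706 (minus strand) for Scn11a, chr19:43440163-43440412 (plus) for Cnnm1, chr3:101110167-101110416 (minus) for Ptgfrn and chrX:139871655-139871904 (minus) for Morc4.
Scn11a: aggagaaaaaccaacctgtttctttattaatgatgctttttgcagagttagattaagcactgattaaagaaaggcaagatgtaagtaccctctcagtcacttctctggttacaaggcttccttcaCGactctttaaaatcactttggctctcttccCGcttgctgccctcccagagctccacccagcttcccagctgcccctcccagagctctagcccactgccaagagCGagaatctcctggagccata
Cnnm1: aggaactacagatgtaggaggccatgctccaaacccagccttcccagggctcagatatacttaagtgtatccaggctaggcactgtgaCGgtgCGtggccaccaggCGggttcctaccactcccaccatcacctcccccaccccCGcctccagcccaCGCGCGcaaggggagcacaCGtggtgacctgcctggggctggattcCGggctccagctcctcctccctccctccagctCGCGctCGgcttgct
Ptgfrn: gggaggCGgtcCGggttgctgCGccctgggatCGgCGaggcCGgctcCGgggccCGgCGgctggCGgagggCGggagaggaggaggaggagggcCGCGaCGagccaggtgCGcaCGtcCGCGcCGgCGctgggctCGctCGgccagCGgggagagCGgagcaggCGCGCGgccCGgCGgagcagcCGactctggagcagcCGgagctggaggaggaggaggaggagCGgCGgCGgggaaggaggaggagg
Morc4: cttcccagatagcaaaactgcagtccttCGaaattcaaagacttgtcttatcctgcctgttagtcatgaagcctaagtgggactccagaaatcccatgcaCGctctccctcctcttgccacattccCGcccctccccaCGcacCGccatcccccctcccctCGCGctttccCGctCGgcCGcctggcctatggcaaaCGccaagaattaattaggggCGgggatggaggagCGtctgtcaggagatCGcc
The Scn11a sequence holds 3 CG dinucleotides and the Ptgfrn sequence 34. Cnnm1 has 12 and Morc4 has 14, while the median of 32851 mouse promoters of that length is 6. Of all promoters, 29.0% have fewer CG dinucleotides than that of Scn11a and 96.5% have fewer than that of Ptgfrn. Genes lost in both clones thus included one below that median and others far above it, and Msrb3, also lost, has 32. The fewest among the 11 promoters, 2, were in the first Rbfox1 promoter, of a gained gene. The bases just after that start were not found in a GENCODE transcript of Rbfox1. They were found for the second Rbfox1 promoter, which has 6. Epb4.1l1, gained in KO2, has promoters with 22, 29 and 10. The motif GGGCGG, searched on both strands, occurred in a promoter of Morc4, Epb4.1l1, Msrb3 and Ptgfrn and in 32.7% of all promoters. TATAAA occurred in none of the 11 and in 12.4% of all. GAGGAA occurred in both Rbfox1 promoters and in 23.3% of all. These are matches of letters only, and no binding was measured.

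Of the 10 genes, 6 were lower in both clones than in every control library: Scn11a, Cnnm1, Msrb3, Ptgfrn, Gypc and Iqcg. Morc4 and Rbfox1 were higher in both clones, 2 genes in all, and Epb4.1l1 was higher in KO2 alone and overlapped control in KO1. Psma8 went below control in KO1 and above it in KO2. The libraries of KO1 and control were apart for 9 of the 10 genes, against 32.9% of the 9564 genes tested. Those of KO2 and control were apart for all 10, against 34.5%, and those of KO2 and KO1 for 4, against 37.4%. Since the genes were picked for these differences, the counts carry no weight as evidence. All 10 passed the filter on low values, 7 of them through a single group with a mean of at least 10.

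**Figure D1:**
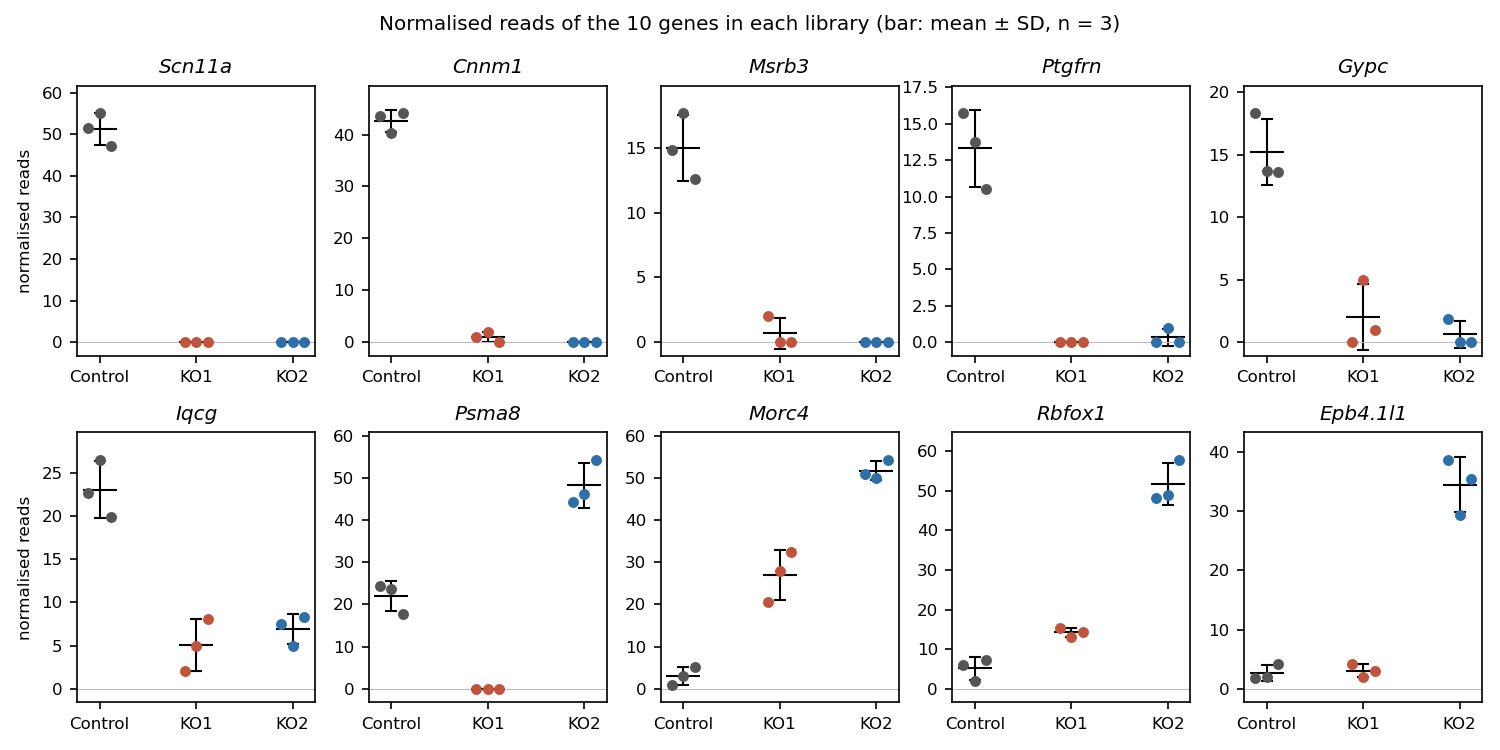
Normalised reads of each gene (vertical axis, linear, own scale per panel) in the 9 libraries, grouped on the horizontal axis as control, KO1 and KO2; points are libraries and bars are group means ± SD. Scn11a is at 0 in all 6 clone libraries, Psma8 is at 0 in KO1 and above control in KO2, and Morc4, Rbfox1 and Epb4.1l1 stand highest in KO2.

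Scn11a (chromosome 9, 119753765 to 119825456, minus strand, 27 exons) encodes a voltage-gated sodium channel. The control libraries held 51.5, 55.0 and 47.2 normalised reads, and the 3 KO1 and 3 KO2 libraries held 0. The gene was thus detected in every control library and in no clone library. Its control mean of 51.2 ± 3.90 rests on 160 reads, and against a limit of 3 reads over each clone it was at least 50.5-fold lower in KO1 and at least 49.95-fold lower in KO2. Of 14 other sodium channel subunit genes, 3 had any read and none reached the filter for testing, so Scn11a was the one gene among those listed for this family that passed it.

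Cnnm1 (chromosome 19, 43440436 to 43497213, plus strand, 11 exons) is one of 4 CNNM family genes. Control libraries held 43.6, 40.3 and 44.1 normalised reads, KO1 libraries 1.03, 2.00 and 0, and KO2 libraries 0. Both clones lay far below control without overlap. The 133 control reads stood against 3 in KO1, a ratio of 42.0 with a 95% counting interval of 14.1 to 206, and KO2 was at least 41.6-fold lower. Without KO1 replicate 2, 1 read was left in KO1 and the ratio was 83.4 (14.7 to 3317). Per kb of exon, the control level of Cnnm1 was 8.46 ± 0.413, between those of its relatives Cnnm2 (4.71 ± 1.80) and Cnnm3 (9.45 ± 1.65). Cnnm2, Cnnm3 and Cnnm4 were not called in either clone against control.

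Psma8 (chromosome 18, 14706151 to 14762299, plus strand, 7 exons) encodes the germ cell counterpart of the proteasome subunit alpha 4, which Psma7 encodes in other cells. Control libraries held 24.4, 23.6 and 17.8 normalised reads, KO1 libraries 0, and KO2 libraries 44.3, 46.1 and 54.3. The 3 groups did not overlap, with KO1 lowest and KO2 highest. KO1 was at least 21.6-fold lower than control (69 reads against 0), KO2 was 2.20-fold higher (counting interval 1.61 to 2.93), and KO2 exceeded KO1 at least 47.55-fold. On the scale per kb of exon, Psma8 stood at 13.0 ± 2.12 in control and 28.5 ± 3.13 in KO2, where Psma7 stood at 616 ± 23.0 and 662 ± 35.2. Psma8 was thus a small addition to Psma7, which was not called in either clone.

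Morc4 (chromosome X, 139821635 to 139871654, minus strand, 16 exons) was near its lower limit of detection in control. Control libraries held 0.872, 2.95 and 5.25 normalised reads, KO1 libraries 20.6, 27.9 and 32.5, and KO2 libraries 50.9, 50.1 and 54.3. Every KO1 library exceeded every control library, and every KO2 library exceeded every KO1 library. The mean was 3.02 ± 2.19 in control, 27.0 ± 6.0 in KO1, 8.95-fold higher (4.70 to 21.2), and 51.8 ± 2.22 in KO2, 17.1-fold higher (9.17 to 39.9). Without control replicate 3, which held 5 of the 9 control reads, the folds were 14.2 and 27.1. KO2 was 1.92-fold above KO1 (1.44 to 2.53).

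Rbfox1 (chromosome 16, 5884793 to 7412480, plus strand, 19 exons) showed the same order. Control libraries held 6.11, 1.96 and 7.34 normalised reads, KO1 libraries 15.5, 13.0 and 14.2, and KO2 libraries 48.1, 49.1 and 57.8. The groups were apart, with the wider step between KO1 and KO2. KO1 was 2.77-fold above control (1.52 to 5.28), KO2 10.1-fold above control (5.95 to 17.9) and KO2 3.63-fold above KO1 (2.55 to 5.21). Rbfox2, the paralogue found in many tissues, stood per kb of exon at 3.56 ± 0.456 in control against 0.937 ± 0.514 for Rbfox1, and at 5.39 ± 0.572 in KO2 against 9.43 ± 0.975. Rbfox1 was thus the lower of the pair in control and the higher in KO2.

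Epb4.1l1 (chromosome 2, 156421052 to 156543214, plus strand, 24 exons), a band 4.1 protein of neurons, was gained in KO2. Control libraries held 1.74, 1.96 and 4.2 normalised reads, KO1 libraries 4.12, 2.00 and 3.05, and KO2 libraries 38.7, 29.5 and 35.4. KO1 and control overlapped, and all KO2 libraries lay above both. KO1 was 1.16-fold control with a counting interval of 0.406 to 3.53, which includes no change, while KO2 was 13.1-fold above control (6.57 to 32.0) and 11.3-fold above KO1 (5.74 to 25.5). Its relatives Epb4.1 and Epb4.1l2 stood per kb at 66.1 ± 2.52 and 69.9 ± 1.67 in control against 0.404 ± 0.208 for Epb4.1l1, and at 68.2 ± 1.97 and 64.2 ± 1.11 in KO2 against 5.30 ± 0.718.

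Gypc (chromosome 18, 32528320 to 32560034, minus strand, 3 exons) encodes glycophorin C, which ties the protein 4.1 complex to the membrane. Control libraries held 18.3, 13.7 and 13.6 normalised reads, KO1 libraries 0, 4.99 and 1.02, and KO2 libraries 1.89, 0 and 0. The clones lay below control, and a single KO1 library held 5 of the 6 reads of that clone. The mean was 15.2 ± 2.67 in control and 2.00 ± 2.64 in KO1, 7.61-fold lower (3.24 to 21.7), and the ratio to KO2, with 2 reads, was 22.5 (5.90 to 191). Without KO1 replicate 2 the first value was a ratio of 30.1 (5.15 to 1213) on 1 read, and without KO2 replicate 1, which held both reads, KO2 was at least 9.48-fold lower.

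Ptgfrn (chromosome 3, 101040236 to 101110166, minus strand, 9 exons) encodes an immunoglobulin-like partner of the tetraspanins CD9 and CD81. Control libraries held 15.7, 13.7 and 10.5 normalised reads, KO1 libraries 0, and KO2 libraries 0, 0.982 and 0. A single read was seen in 6 clone libraries. Control (42 reads) was at least 13.1-fold above KO1, and its ratio to the 1 read of KO2 was 39.4 (6.70 to 1593). Without KO2 replicate 2, which held that read, KO2 was at least 8.46-fold lower.

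Msrb3 (chromosome 10, 120781101 to 120898971, minus strand, 7 exons) encodes a methionine sulfoxide reductase needed for hearing. Control libraries held 14.8, 17.7 and 12.6 normalised reads, KO1 libraries 2.06, 0 and 0, and KO2 libraries 0. Both clones lay below control without overlap. Against 47 control reads, KO1 had 2, a ratio of 22.3 (5.83 to 189), and KO2 was at least 14.7-fold lower. Without KO1 replicate 1, which held both reads, KO1 was at least 9.95-fold lower.

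Iqcg (chromosome 16, 33014270 to 33056186, minus strand, 11 exons) encodes a calmodulin-binding protein of the sperm tail and kept reads in every clone library. Control libraries held 22.7, 26.5 and 19.9 normalised reads, KO1 libraries 2.06, 4.99 and 8.13, and KO2 libraries 7.55, 4.91 and 8.26. The clones overlapped each other and lay below control. KO1 was 4.55-fold lower (2.58 to 8.55) and KO2 3.34-fold lower (2.04 to 5.85). In the authors' FPKM, a second deposited measure taken up below, the differences were far smaller. There control stood at 5.74 against 4.14 in KO1, and at 5.76 against 3.15 in KO2.

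Per kb of exon, the order of levels in control was Psma8 (13.0), Scn11a (8.78), Cnnm1 (8.46), Gypc (6.98), Iqcg (5.72), Msrb3 (4.05), Ptgfrn (2.30), Rbfox1 (0.937), Morc4 (0.685) and Epb4.1l1 (0.404). Neighbours in that order from Scn11a to Iqcg overlapped pairwise in their libraries, and so did the lowest 3. The place of Iqcg rests on reads, and in the authors' FPKM its control level of 5.74 stood above those of Scn11a (3.88), Cnnm1 (3.85) and Gypc (3.66). In KO2 the order began with Psma8 (28.5), Morc4 (11.7), Rbfox1 (9.43) and Epb4.1l1 (5.30), each apart from the next. In KO1 it began with Morc4 (6.13) and Rbfox1 (2.59). The highest gene of control and KO2, Psma8, was thus listed at 0 in KO1.

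A near-complete loss was rare among the tested genes. Of 9564 genes, 22 (0.23%) had 3 reads or fewer in KO1 and a mean of at least 10 in control, and 5 of the 10 genes were among them. For KO2 the count was 30 (0.314%), again with 5 of the 10. A further 10 genes (0.105%) had 3 reads or fewer in KO1 and a mean of at least 10 in KO2, Psma8 among them, and 28 (0.293%) the reverse, with none of the 10. In the other direction 6 genes (0.0627%) were silent in control and present in KO1 and 5 (0.0523%) were silent in control and present in KO2, with none of the 10, since Morc4, Rbfox1 and Epb4.1l1 had 9, 16 and 8 control reads. The genes were chosen for such levels, so these counts are a description and no test.

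Relatives and partners of the 10 genes were tested in limma across all 9564 genes, with Benjamini-Hochberg adjustment and calls under 0.05. Of 99 tested relatives, 20 were higher and 12 lower in KO1 than in control (32.3%, against 20.8% of all tested genes, 10.5% higher and 10.2% lower), with a median log2 change of -0.0095 against -0.0066 for all genes. In KO2, 15 were higher and 13 lower (28.3%, against 22.5%, made up of 10.7% and 11.8%), with medians of 0.013 and -0.0087. Between KO2 and KO1, 19 were higher and 16 lower in KO2 (35.4%, against 26.5%, made up of 12.9% and 13.5%), with medians of 0.015 and 0.0028. Most relatives stayed uncalled, and the few large changes are named here.

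Among the methionine sulfoxide and thioredoxin genes, 2 rose and 3 fell in KO1 and 3 rose and 2 fell in KO2, of 15. Msrb2, the mitochondrial relative of Msrb3, fell in both clones, from 13.1 ± 1.58 normalised reads to 1.35 ± 0.562 in KO1 (log2 -2.60 ± 0.50 SE, adjusted p = 3.76e-05) and 0.642 ± 0.556 in KO2 (log2 -3.16 ± 0.50, adjusted p = 7.32e-07). Only 4 reads in KO1 and 2 in KO2 stood against 41 in control. Msrb1, the selenoprotein of the group, stood at 86.1 in control, 91.6 in KO1 and 114 in KO2. Per kb it exceeded Msrb2 and Msrb3 together in all 3 groups, so the most abundant of the 3 was not among those that fell.

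Of 9 tested genes of the membrane skeleton, 2 rose and 2 fell in KO1 and none was called in KO2. Sptbn1, the non-erythroid beta spectrin, held 27.6 ± 2.95 normalised reads in control and 0.344 ± 0.595 in KO1, where 1 read stood against 86 (ratio 81.5, counting interval 14.2 to 3257), and fell with log2 -4.49 ± 0.35 (adjusted p = 2.09e-16). In KO2 it held 28.9 ± 7.64 and was not called. The clones differed in Sptbn1 (KO2 minus KO1 log2 4.53 ± 0.35, adjusted p = 8.01e-17). Sptan1, its alpha spectrin partner, was called in neither clone.

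The proteasome list had 6 genes higher and 3 lower in KO1 and 4 higher and 4 lower in KO2, of 26 tested. Psmb8, a subunit of the immunoproteasome, moved opposite to Psma8: 170 ± 4.82 normalised reads in control, 275 ± 28.2 in KO1 (log2 0.69 ± 0.09, adjusted p = 2.24e-08) and 103 ± 12.2 in KO2 (log2 -0.72 ± 0.09, adjusted p = 4.94e-09). Psmb9, another such subunit, went the same way, but its call in KO1 (log2 0.62 ± 0.20, adjusted p = 0.0196) was lost without control replicate 2, control replicate 3 or KO1 replicate 2 (adjusted p = 0.14, 0.0561 and 0.108) and in DESeq2 (0.0863). Psmg1, a proteasome assembly chaperone, fell in KO1 from 130 ± 11.9 to 57.5 ± 13.6 (log2 -1.18 ± 0.13, adjusted p = 1.26e-10). Of the MORC and gene silencing list, with 6 tested genes, Morc3 fell in KO1 from 248 ± 11.2 to 123 ± 13.6 (log2 -1.01 ± 0.09, adjusted p = 8.67e-14), and it was the one gene of that list called there. Psmg1 and Morc3 both lie on chromosome 16 beyond 70 Mb, where 48 of 62 tested genes were lower in KO1 and the median log2 change was -0.80. Whether their falls are those of that stretch was not tested, and Iqcg and Rbfox1 lie outside it.

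Among 12 tested tissue splicing regulators, 3 rose and 1 fell in KO1 and 2 rose and 1 fell in KO2. Rbfox2 rose in KO1 from 26.2 ± 3.36 to 53.4 ± 2.24 normalised reads (log2 1.01 ± 0.19, adjusted p = 2.14e-05). In KO2 it stood at 39.7 ± 4.21 (log2 0.58 ± 0.19, adjusted p = 0.0159), a call lost without control replicate 1 or KO2 replicate 2 (adjusted p = 0.0893 and 0.084) and in DESeq2 (0.116). Of 15 magnesium transport genes around Cnnm1, 1 rose in KO1 and 2 fell in KO2. Of 29 axoneme genes listed around Iqcg, 14 had a read and only Gas8 could be tested, without a call.

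The tetraspanin list around Ptgfrn had 6 genes higher and 2 lower in KO1, and 5 higher and 3 lower in KO2, of 15. Cd9 rose from 559 ± 18.8 to 879 ± 30.2 in KO1 (log2 0.65 ± 0.05, adjusted p = 2.58e-17) and 725 ± 13.4 in KO2 (log2 0.38 ± 0.05, adjusted p = 3.48e-09). Cd63, a tetraspanin of late endosomes, rose from 166 ± 23.3 to 294 ± 9.97 and 411 ± 30.8 (adjusted p = 2.69e-13 and 2.86e-21). Itga6, a laminin-binding integrin chain, fell in KO2 alone of the clones, from 45.6 ± 5.62 to 12.8 ± 2.48 (log2 -1.76 ± 0.20, adjusted p = 2.11e-10). It differed between the clones themselves (KO2 minus KO1 log2 -2.10 ± 0.20, adjusted p = 4.99e-13). Cd101, a leukocyte relative of Ptgfrn that also lies 10.7 kb from it, fell from 19.6 ± 0.778 to 8.09 ± 2.91 in KO1 (log2 -1.23 ± 0.34, adjusted p = 0.00483) and 6.96 ± 2.77 in KO2 (log2 -1.44 ± 0.34, adjusted p = 0.000749). Without KO1 replicate 1 the first of these calls was lost (adjusted p = 0.0517), as it was in DESeq2 (0.0508). Igsf8, another immunoglobulin-like partner of CD9 and CD81, was called in neither clone.

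**Figure D2:**
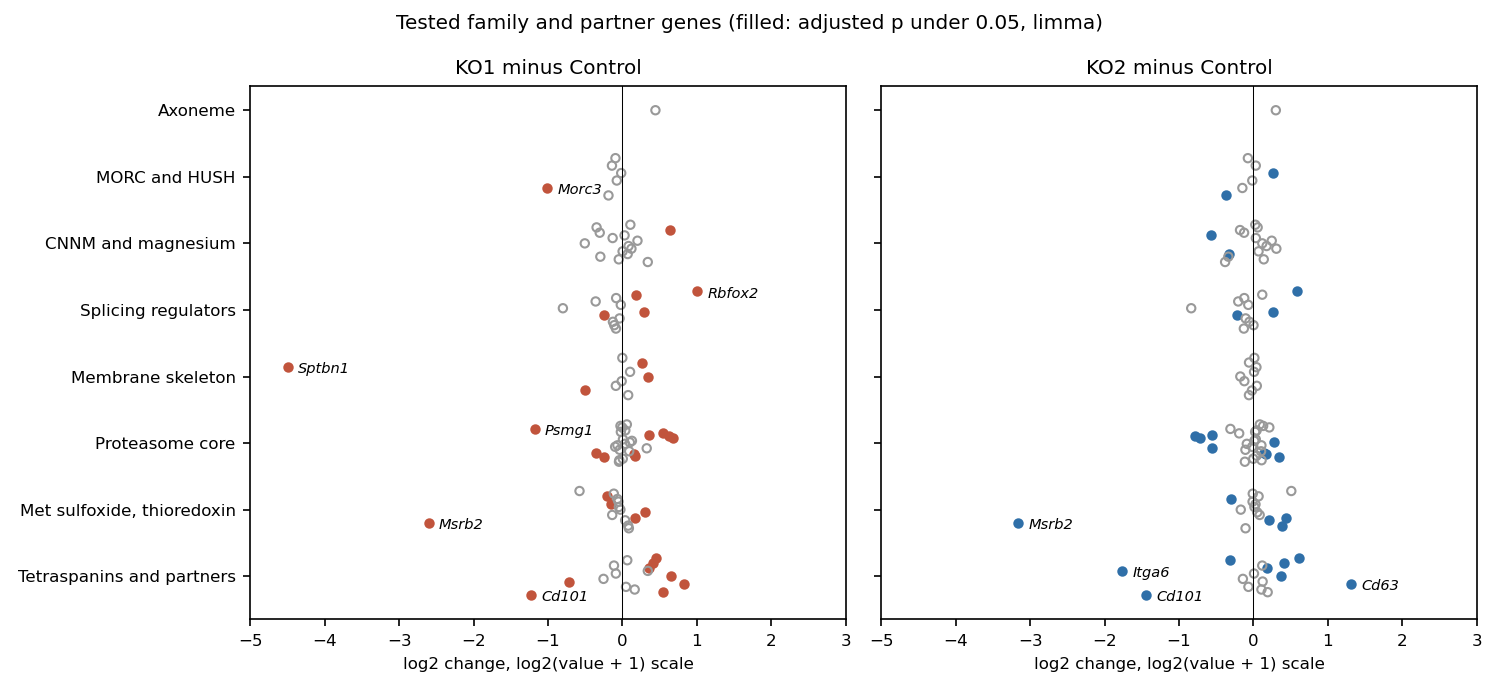
Log2 changes against control, on the log2(value + 1) scale, (horizontal axis) of the tested relatives of the 10 genes by list (vertical axis), with 1 panel per clone; each point is a gene, filled where called by limma. Most points lie close to 0, and Sptbn1 in KO1 and Msrb2 in both clones lie farthest from it.

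The 5 nearest tested genes on each side of each gene were compared with the background next. Of the 100 neighbours, 16 were higher and 8 lower in KO1 (24.0%, against 20.8% of all genes), 9 higher and 11 lower in KO2 (20%, against 22.5%), and 8 higher and 13 lower in KO2 than in KO1 (21.0%, against 26.5%). These shares lie near the background. Of the 20 nearest neighbours alone, 8 were called in KO1 (40%, against 20.8%) and 5 in KO2 (25%, against 22.5%). The 8 were Got1, Taf4b, Hmga2, Lemd3, Lrch3, Rpl35a, Bin1 and Cd101. Hmga2 and Lemd3 both flank Msrb3, and Lrch3 and Rpl35a both flank Iqcg. The share in KO1 was above the background, but not all of these calls held. Those of Got1, Taf4b, Lemd3 and Cd101 were lost in DESeq2 (adjusted p = 0.074, 0.0787, 0.136 and 0.0508), where fewer of all genes were called. The Bin1 call was lost without KO1 replicate 3 (adjusted p = 0.0537). The 12 called in neither clone included Wdr48 and Exog beside Scn11a and Aar2 beside Epb4.1l1.

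Some neighbours moved with their gene and others against it. Taf4b, a general transcription factor subunit of germ cells lying 20.9 kb from Psma8, followed its order with 40.7 ± 8.55 normalised reads in KO1, 59.5 ± 5.68 in control and 81.9 ± 3.36 in KO2. The clones differed (KO2 minus KO1 log2 1.01 ± 0.16, adjusted p = 4.38e-07). The call of KO1 against control (log2 -0.55 ± 0.16, adjusted p = 0.00638) was lost without KO1 replicate 2 (0.0519) and in DESeq2 (0.0787), and that of KO2 (log2 0.46 ± 0.16, adjusted p = 0.0258) without control replicate 1, control replicate 3, KO2 replicate 2 or KO2 replicate 3 (0.0571, 0.131, 0.0694 and 0.0859) and in DESeq2 (0.106). Rnf128, a ubiquitin ligase gene 148 kb from Morc4, rose in both clones, where Morc4 was also higher, from 26.6 ± 6.73 to 52.1 ± 4.05 and 59.2 ± 1.15 (adjusted p = 2.7e-05 and 7.28e-07), while Rbm41 and Tbc1d8b, which lie nearer, were not called. Hmga2, a chromatin protein gene 304 kb from Msrb3, did not follow it: it rose in KO1 from 219 ± 13.8 to 345 ± 10.9 (log2 0.66 ± 0.09, adjusted p = 1.37e-08) and fell in KO2 to 82.2 ± 8.61 (log2 -1.41 ± 0.09, adjusted p = 1.64e-20). Lemd3, nearer to Msrb3 at 24.4 kb, was lower in KO1 (log2 -0.51 ± 0.17, adjusted p = 0.0233) and not called in KO2. The Lemd3 call was lost without control replicate 1 or KO1 replicate 1 (0.13 and 0.145) and in DESeq2 (0.136). Got1, 2.54 kb from Cnnm1, fell by 0.27 on the log2 scale in KO1 and by 0.28 in KO2, far less than the difference in Cnnm1, and its call in KO1 was lost in DESeq2 (adjusted p = 0.074). Farther from Cnnm1, Marveld1, a membrane protein gene, went the other way and rose in both clones (log2 0.70 ± 0.14 and 1.01 ± 0.14, adjusted p = 9.91e-05 and 5.18e-08), and Avpi1 rose in KO2 (log2 1.18 ± 0.25, adjusted p = 0.000146).

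**Figure D3:**
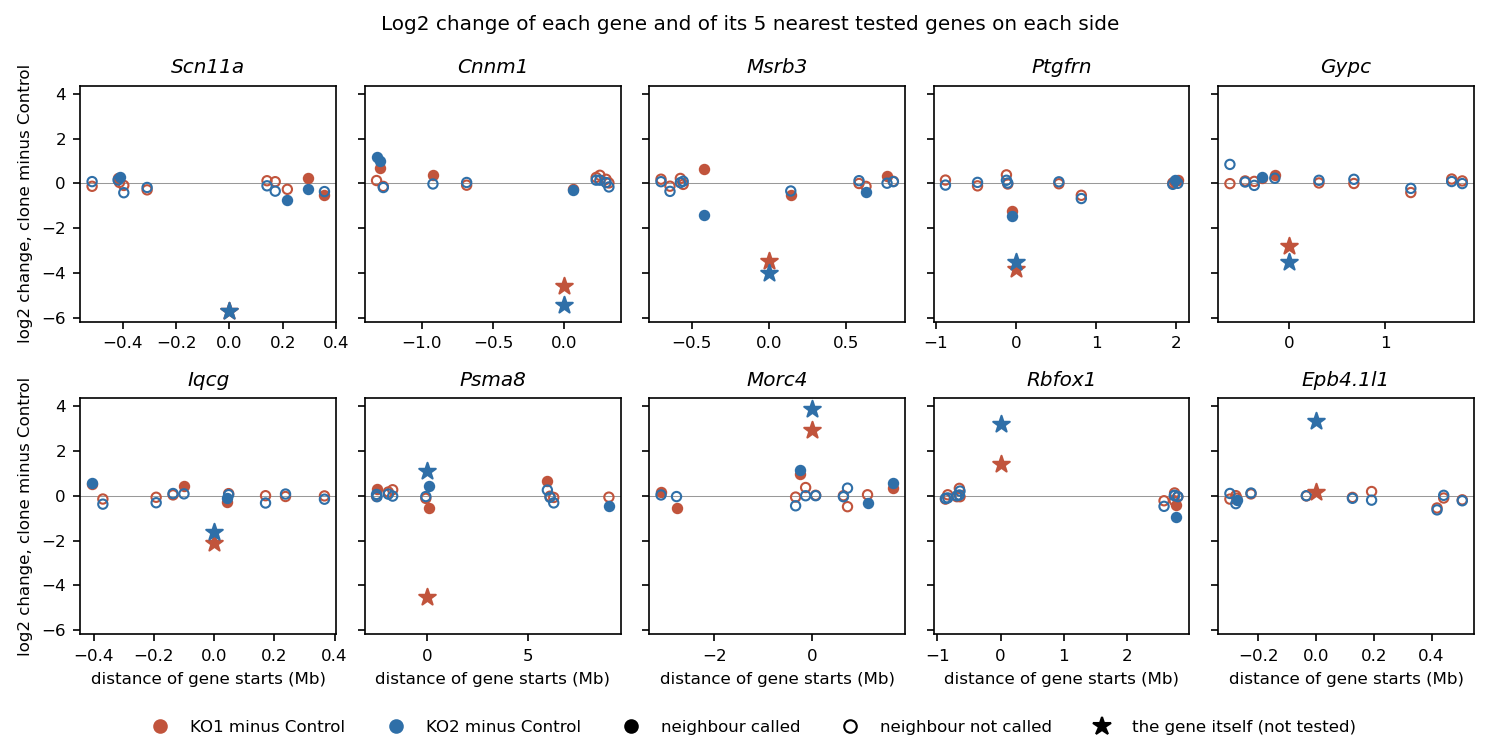
Log2 change against control on the log2(value + 1) scale (vertical axis) of the 10 genes and their tested neighbours against distance between gene starts in Mb (horizontal axis) for KO1 and KO2; stars are the 10 genes, filled circles called neighbours and open circles neighbours not called. Most stars lie farther from 0 than the neighbours, which mostly lie near it, and the 10 genes were chosen for such differences. Epb4.1l1 in KO1, at 0.19, lies among its neighbours. Hmga2 beside Msrb3 is lower in KO2 and Rnf128 beside Morc4 is higher in both clones.

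The 2 genes most like each of the 10 were sought by Pearson's r of log2(value + 1) over the 9 libraries, among 9524 genes. The libraries form 3 groups, so r mainly reflects the pattern of the group means, and it is given as a description. Gm13154 and 4930524O08Rik were most like Scn11a (r = 1.00 for both), with 23.9 ± 2.09 and 35.0 ± 5.42 normalised reads in control and 0 in every clone library. Fmnl2, a formin gene, was most like Ptgfrn (r = 0.985), with 25.3 ± 5.92 in control and 0 in both clones. Pxdn, a peroxidase of the basement membrane, was most like Psma8 (r = 0.995), at 265 ± 11.4 in control, 61.0 ± 6.05 in KO1 and 426 ± 14.8 in KO2. Fcgr2b, the inhibitory Fc receptor, was among the 2 most like Cnnm1 (r = 0.990), at 218 ± 21.6 in control, 33.1 ± 5.33 in KO1 and 27.8 ± 2.79 in KO2. Also among the most alike were Fat1 for Morc4, Dst for Rbfox1, Npc2 for Epb4.1l1, Cdk18 for Msrb3, Rps3 for Iqcg and Kdsr for Gypc.

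A separate deposited set of FPKM values, scaled by the authors within each pair of groups, gives the same genes on another route. For the tested genes in control, FPKM stood at a median of 1.03 times a value computed from the reads and exon length, with 5% to 95% of 9545 genes between 0.932 and 1.44. Of the 10 genes, 9 stood between 0.936 and 1.29, and Iqcg stood at 2.14, a ratio that 1.15% of genes exceeded. In the clones the ratio for Iqcg was larger still, 7.22 in KO1 and 3.98 in KO2. Iqcg had an FPKM of 5.74 ± 0.304 in control and 4.14 ± 0.857 in KO1, and of 5.76 ± 0.309 and 3.15 ± 0.624 in the table of control and KO2. Its libraries were apart from control in both, yet the differences in FPKM are far smaller than the 4.55-fold and 3.34-fold differences in reads. Of 4027 exon bases of Iqcg, 43.7% are shared with Lrch3 on the opposite strand in the table's annotation, and Rpl35a, at 1209 normalised reads in control, starts 0.267 kb away. Whether the authors counted by strand is not given in the sources used here, so the part of either gene in the difference was not tested and the level of Iqcg is uncertain.

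**Figure D4:**
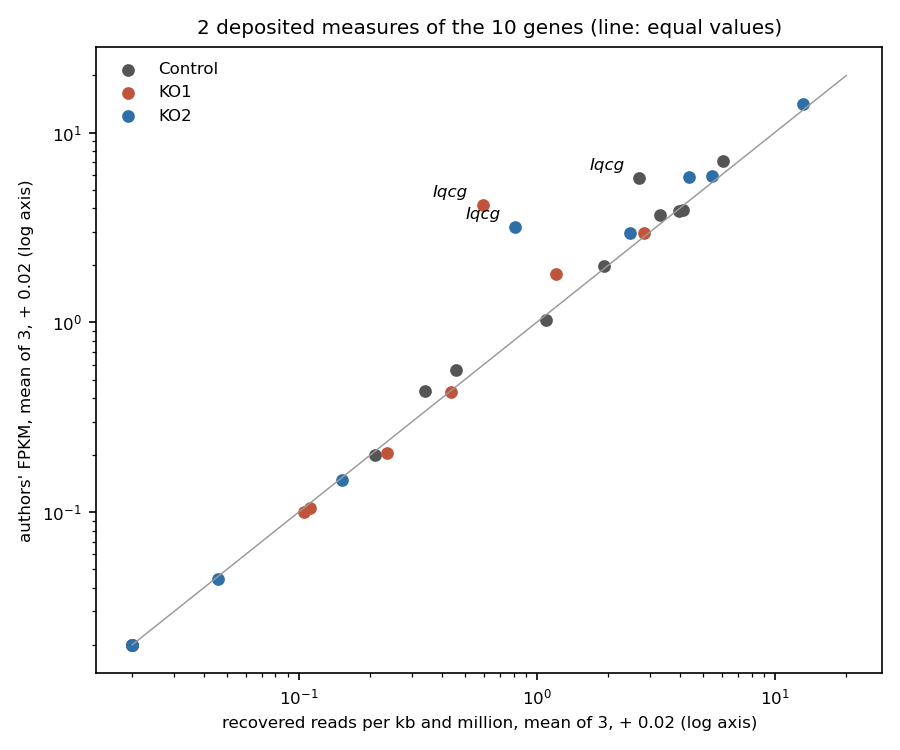
Authors' FPKM (vertical axis) against the recovered reads scaled to exon length and library total (horizontal axis) for the 10 genes by group, both on log axes after adding 0.02 so that 0 can be drawn. Most points lie close to the diagonal; those of Iqcg lie well above it in all 3 groups, and those of Rbfox1 above it by 1.24, 1.5 and 1.34 times in control, KO1 and KO2.

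Neuron, germ cell and erythroid markers, of cell types in which some of the 10 genes are best known, were mostly at 0, as were mesenchyme markers. Of 17 neuron markers, 4, 2 and 3 had a read in control, KO1 and KO2, and the summed level was 1.96 to 6.11, 11 to 13.2 and 4.72 to 12.3 normalised reads, with Tubb3, Snap25, Syt1, Map2 and the pain neuron channel genes Scn9a and Scn10a at 0 throughout. Nefh, a neurofilament gene, gave most of that sum in the clones, at 9.47 ± 1.53 in KO1 and 6.38 ± 1.48 in KO2 against 0.909 ± 0.875 in control. Of 25 germ cell markers, 5, 6 and 3 had a read and the sums were 205 to 242, 213 to 228 and 250 to 264, of which Syce2, at 212 ± 21.7, 214 ± 7.18 and 249 ± 5.86, made nearly all, with Ddx4, Dazl, Sycp2, Prm1 and Tnp1 at 0. Of 12 erythroid markers, 3, 1 and 1 had a read, the sums were 0 to 3.15, 0 to 1.02 and 0 to 2.95, and the globin genes and Gata1 were at 0. Of 13 mesenchyme markers, 5, 5 and 6 had a read and the sums were 8.39 to 9.60, 12 to 12.4 and 7.85 to 14.2, with Col1a1, Col1a2, Dcn and Myod1 at 0. Most markers of those other cell types were thus at 0. Syce2 and, in the clones, Nefh were exceptions. Next in total reads came Sycp1 (46) and Tagln (43), also present in control. In control, KO1 and KO2 Sycp1 stood at 5.13, 3.73 and 6.47 normalised reads and Tagln at 4.55, 5.05 and 4.70. Nefh was higher in the clones, as were Morc4 and Rbfox1, and its part in their levels was not tested.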

How the data were processed

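RNA from 9 libraries (3 per group) was sequenced by the authors as stranded mRNA libraries on an Illumina MiSeq, per the labels and the series' design text. Per the submitters' processing notes the tools included edgeR 3.20.1, featureCounts 1.4.6, TopHat2 2.0.22 and Cufflinks 2.1.1 and the genome build was mm10. The signal in the main deposited table is counts per gene after the authors' division by a size factor for each library, and FPKM values that the authors scaled within pairs of groups stand in separate deposited tables. In each library 100% of the signal values were whole multiples of 1 step within 1e-06, so the reads were recovered.

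Relatives and neighbours were tested with limma-trend (limma 3.58.1, R 4.3.3) on log2(value + 1) in 1 fit of all 9 libraries, for the 9564 genes whose value reached 10 in 3 or more libraries, with Benjamini-Hochberg adjustment over all of them. Log2 changes on this scale understate those of genes with few reads. Alternatives included edgeR 4.0.16 and DESeq2 1.42.0 on the recovered reads, other filters and pseudocounts, and leaving out each library. The procedure was tested on simulated data. A group with 0 reads gave a fold against 3 reads over the group, printed as at least. Such a fold leaves out the counting error of the other group, so it is no exact limit. A lower group of 1 to 3 reads gave a ratio of pooled normalised reads with its 95% exact interval. Above 3 reads the fold is that of the group means, and the interval printed with it is that of the pooled ratio. The 10 genes and all lists were chosen with earlier results of these data known. Named besides the 10 genes were the 2 genes most like each, relatives and neighbours called with a log2 change of at least 1 (at most 4 per list), the most abundant relatives, the nearest neighbours and the highest markers, and some of these are not reported here. Replicate numbers did not pair the libraries. No genome sequence beyond RefSeq promoters was used.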

Additional observations from a re-analysis of the deposited data

Results flagged for a closer look

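Several relatives and neighbours of the 10 genes differed between the clones, with KO2 minus KO1 tested in limma under a Benjamini-Hochberg adjusted p of 0.05. Psma8 itself was flagged because every KO1 library lay below control and every KO2 library above it, by 5.62 on the log2(value + 1) scale between the clones, and this difference was not tested. Among genes of the proteasome list, the log2 difference was -1.41 for Psmb9, -1.41 for Psmb8, 0.87 for Psmg1 and 0.50 for Psma6. Sptbn1, a spectrin gene, differed by 4.53, Morc3 by 0.86 and Stom, a membrane skeleton gene, by -0.32. Psmg1 and Morc3 lie on chromosome 16 beyond 70 Mb. Of 62 tested genes there, 48 were higher and 4 lower in KO2 than in KO1, with a median log2 difference of 0.89. Whether the differences of Psmg1 and Morc3 are those of that stretch was not tested. Itga6 differed by -2.10, Cd63 by 0.48 and Cd9 by -0.28. The thioredoxin system genes Txnrd3, Txnrd1 and Prdx1 differed by 1.09, 0.28 and 0.17, and the magnesium list genes Ptp4a2 and Magt1 by 0.16 and -0.40. Of the neighbours, Hmga2 differed by -2.06, Avpi1 by 1.05, Taf4b by 1.01, Lrch3 by -0.35 and Rpl35a by 0.14. The Lrch3 call was lost without KO1 replicate 1 or 2 or KO2 replicate 1 or 3 (adjusted p = 0.0548, 0.0944, 0.0508 and 0.0503). The Ptp4a2 call was lost without KO1 replicate 1 or 3 or KO2 replicate 1 or 2 (0.191, 0.0745, 0.12 and 0.091), and the Txnrd3 call without KO1 replicate 3 or KO2 replicate 2 (0.0519 and 0.101). The Rpl35a call was lost without KO1 replicate 2 or 3 or KO2 replicate 1 (0.109, 0.101 and 0.133). In DESeq2 all 4 of these calls were lost (adjusted p = 0.129 for Lrch3, 0.134 for Ptp4a2, 0.0965 for Txnrd3 and 0.0639 for Rpl35a).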

How the results depend on the processing

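Against control the 10 genes kept their direction under the alternatives run, except Epb4.1l1 in KO1, whose log2 difference of 0.19 came to -0.00022 without KO1 replicate 1. Between the clones the difference of Iqcg turned from 0.49 to -0.31 with FPKM, and those of Gypc, Msrb3 and Ptgfrn, on few reads, came to 0.0040, 0 and 0 when 1 library was left out. In all, 40 of 330 values moved by more than the spread between replicates, 23 of them with FPKM and 17 with a pseudocount of 0.1. Named genes that were called kept their direction, with 86 of 2970 values falling below the threshold and 15 passing it. In DESeq2 fewer genes were called, 1236 in KO1, 1396 in KO2 and 1612 between the clones, and 12 neighbours in KO1 and 8 between the clones; the cause was not tested. At an adjusted p under 0.01, 11 neighbours were called between the clones. Windows of 3 genes a side gave 12, 11 and 9 called neighbours and windows of 10 gave 47, 39 and 42, by their size. With 0 reads as the limit for silence, 13 genes were silent in KO1 and 14 in KO2 against control, 2 and 2 in control, 4 in KO1 against KO2 and 7 in KO2 against KO1. With 10 reads the counts were 48 in KO2 and 21 and 16 in control against KO1 and KO2, and 20 and 48 for KO1 and KO2 against each other. With a mean of at least 20 they were 12 in KO1, 15 in KO2 and 1 in control against KO1, and 4 and 16 between the clones. Leaving out 1 library gave 5 to 11 genes silent in control and present in KO1, the highest without control replicate 1. With a replicate block, which the check of residuals (r from -0.017 to 0.028) did not call for, 2001, 2171 and 2545 genes, 32, 29 and 36 relatives and 24, 20 and 21 neighbours were called. Reads this few limit the 10 genes: a group with 0 reads allows up to 3.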
